A study of Danio rerio with 12 samples.

Results

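Regions of open chromatin that were called in 3 fractions of sorted zebrafish cells and missing from the fourth, the double positive fraction, were described here. Cells came from whole embryos at 72 hours post fertilisation that were wild type apart from the transgenes kdrl:mCherry and sele:GFP, carried by the embryos of every group and given no treatment. Sorting by the reporters gave a double positive fraction (mCherry and GFP), fractions with a single reporter (mCherry only and GFP only) and a double negative fraction, with 3 samples of each and 12000 to 50000 cells used per library. Open DNA was tagged with the Tn5 transposase (ATAC-seq), and 1 list of peaks per fraction was analysed, named in the labels of all 3 samples of its group. A fraction is therefore 1 list with no replicate check, so no p-value was computed and intervals cover counting error alone. The members are the double negative peaks on chromosomes 1 to 25 that overlapped by at least 1 bp a peak of the mCherry only list and a peak of the GFP only list, and no peak of the double positive list. They numbered 20973 of the 166282 double negative peaks there (12.6%, Wilson 95% interval 12.5 to 12.8). They were chosen by the calls in all 4 lists, so their number and heights are descriptions.

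The product of kdrl is a VEGF receptor of endothelial cells, and the promoter of this gene is widely used to label zebrafish vessels. E-selectin, the product of sele, helps circulating cells adhere to the vessel wall, and the series concerns the vascular niche in which blood stem cells lodge. Promoters and other regulatory elements in use are bound by factors in place of nucleosomes, which lets the transposase in. A region open in endothelium and in unlabelled cells alike is commonly an element shared by many cell types. A sort by reporters gathers every cell with enough fluorescence, so each fraction can be a mixture. The labelled cell types could not be checked against marker genes, because the lists hold no gene names and no annotation of their genome build, danRer7, was used here.

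Among 76640 double negative peaks that were also in the mCherry only and GFP only lists, 27.4% had no double positive peak. The corresponding share was 3.53% for regions missing only from mCherry only, 10.4% for regions missing only from GFP only and 8.32% for regions missing only from double negative, the last counted in the mCherry only list. In numbers, 20973 regions were missing only from double positive, 2037 only from mCherry only, 6474 only from GFP only and 5051 only from double negative. The double positive list was the shortest of the 4, with 90687 peaks on these chromosomes, against 134260 in the mCherry only list, 138364 in GFP only and 166282 in double negative. Its genome-wide background, which follows its depth, was 0.813 times the double negative one. The other classes compared all required a peak in the double positive list, and members did not, so the shares rest on unlike sets. Regions missing only from double positive were 3.24 times as many as those missing only from GFP only. With all lists cut to equal length there were 6268 members and the ratio was 1.25.

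From fold 2 upward, the share missing fell with the enrichment of the region in the lists that held it. Fold is the authors' linear ratio of reads at the summit to the expected local background, and the lowest of the 3 folds of a region was used. Below fold 2 there were few regions, 273 with 39 members (14.3%), and from fold 2 to 3 there were 5791 members among 10812 (53.6%). From fold 3 to 4, 44.0% of regions were missing from double positive (10663 of 24259), against 5.65% from mCherry only, 18.2% from GFP only and 14.5% from double negative. From fold 5 to 6 these shares were 9.80%, 0.0157%, 2.94% and 2.93% in the same order. Between fold 6 and 8 there were still 307 members among 9788 regions (3.14%). The counterparts were 1 of 7913 for mCherry only, 75 of 8782 for GFP only and 87 of 8692 for double negative. At fold 10 or more 1 of 4138 regions was a member. There the counterparts were 0 of 3711 for mCherry only, 1 of 4189 for GFP only and 0 of 3978 for double negative.

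**Figure D1:**
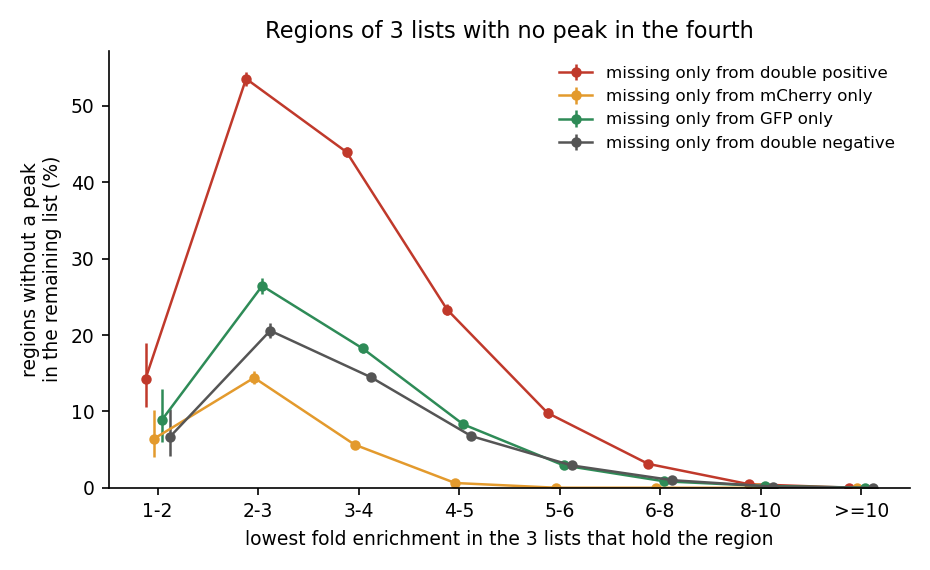
Share of regions of 3 lists without a peak in the remaining list (y axis, %) against the lowest fold enrichment in the 3 lists (x axis, bins), with Wilson 95% intervals as bars. The curve for double positive lies above the others from fold 2 to 8, with 44.0% at fold 3 to 4, and that for mCherry only reaches 0.0157% at fold 5 to 6.

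Members had lower summits, by their medians, than double negative peaks in all 4 lists. Height is the summit's reads over the genome-wide background of its list. It scales for depth, but not for a difference between whole lists in enrichment over background. Median height of members was 5.16 in the mCherry only list (quartiles 4.04 and 6.73), 5.39 in GFP only (4.22 and 7.27) and 6.27 in double negative (4.70 and 8.96). The medians in reads were 23, 23 and 28. Double negative peaks in all 4 lists had median heights of 11.0 in mCherry only, 8.91 in GFP only and 9.85 in double negative, and of 8.81 in double positive. The rule of absence itself favours low summits, so no test was made of this difference.

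The balance between the 3 lists also differed between members and regions of all 4 lists. These sets were split by the calls in double positive, the other fraction with mCherry. The rule can therefore in part fix this balance, and how far it does was not tested. Among members, the double negative summit was the tallest in 47.5%, the GFP only summit in 31.4% and the mCherry only summit in 21.1%. In the regions of all 4 lists mCherry only led, with 45.8% of regions, against 21.6% led by GFP only and 32.7% by double negative. The median ratio of mCherry only to double negative height was 0.842 in members and 1.07 in regions of all 4 lists. Members above the limit defined below gave 0.946, and their counterparts in all 4 lists 1.06. For GFP only over double negative the medians were 0.897 in members and 0.945 in regions of all 4 lists. Above the limit this order turned round, with 0.980 in members and 0.946 in regions of all 4 lists. Of the 20973 members, 3975 reached a height of 10 or more in double negative, 2389 in GFP only and 1257 in mCherry only. Of the 55667 regions of all 4 lists, 27163, 24514 and 30721 did so in the same order.

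**Figure D2:**
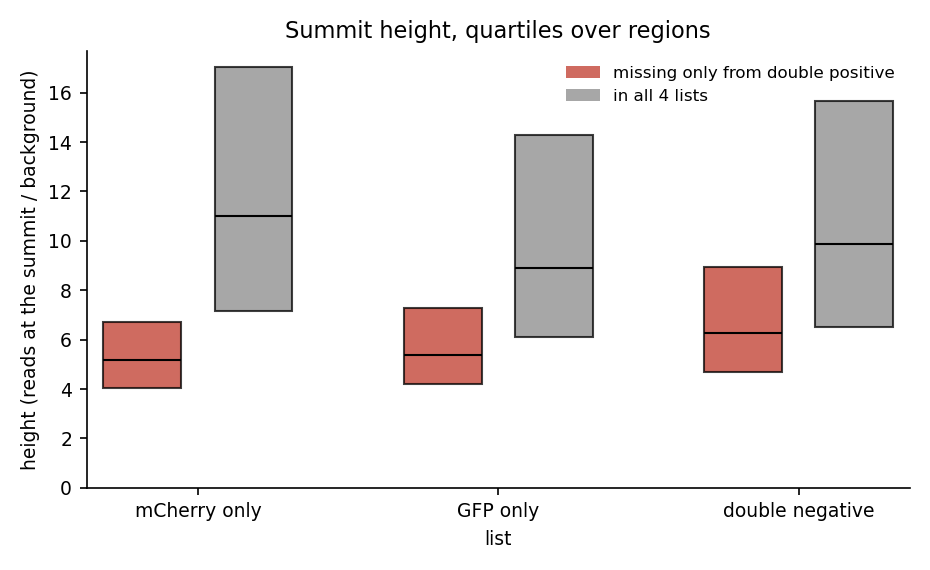
Height at the summit (y axis, reads over genome-wide background) in each list (x axis) for regions missing only from double positive (left box of each pair) and for double negative peaks in all 4 lists (right box). Boxes span the quartiles and the line is the median, 5.16 for members and 11.0 for regions of all 4 lists in mCherry only.

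Depth was set against absence region by region. The lowest of the 3 heights of a member was scaled to the double positive background, which gives the reads its summit would hold there at equal height. The number of reads a double positive peak needed was taken at the lowest −log10 p of that list (2.78) and at the highest local background of the 3 lists. At the genome-wide background 10 reads sufficed, and the narrowest peak of the list was 200 bp. A member was put above this call limit where the lower exact Poisson 95% bound of the scaled reads exceeded the reads needed. This held for 4264 members (20.3%). The other 16709 were not above it, by that choice of the lowest height and the highest local background. A region that is not above the limit can still be called. Of the 55667 regions of all 4 lists 36967 were above it, and the rest had a double positive peak all the same. Lower accessibility of the 16709 was not tested. The count above the limit depends on the choice. It was 8449 with the genome-wide background in the limit, 11155 with the median of the 3 heights, and 761 with −log10 q of 5 or more asked of every list. The limit makes no allowance for counting error in the double positive list itself, and none for peak width. It makes none either for a lower enrichment over background across the whole double positive list. In regions of all 4 lists the median height was 8.81 in double positive, against 11.0 in mCherry only, 8.91 in GFP only and 9.85 in double negative. A lower accessibility of the 4264 members above it was therefore not tested.

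Of 41231 regions above the limit, 10.3% were members. The same calculation, with the limit of the list that lacked the peak, gave 0.567% missing only from mCherry only (207 of 36539), 4.28% missing only from GFP only (1703 of 39775) and 3.98% missing only from double negative (1658 of 41653). The Wilson interval of the double positive share was 10.1 to 10.6%. These shares rest on unlike limits. The lowest −log10 p was 2.78 in double positive, 2.65 in mCherry only, 2.63 in GFP only and 2.57 in double negative. The other classes were also drawn from regions with a double positive peak, and members were not. With lists of equal length, 9.74% of such regions lacked a double positive peak, 0.0108% an mCherry only peak, 1.55% a GFP only peak and 1.58% a double negative one. Equal length raises the limit of every list but the double positive one, so these shares rest on unlike limits. They do not give a double positive excess corrected for length. The shares were 3.51%, 0.0241%, 1.57% and 1.54% with −log10 q of 5 or more asked of every list, which raises the limit as well. Over the 4264 members, the scaled reads had a median of 22.0 and the reads needed a median of 12, and the median ratio of needed to scaled reads was 0.559. That ratio was under 0.5 in 1094 members.

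The members with the strongest enrichment in all 3 lists had 46 to 106 reads at their summits in those lists. Scaled from the lowest height to the double positive background these were 37.5 to 46.4 reads, where a double positive peak would have needed 11 to 15. These members were ranked by the lowest of the 3 folds, a ranking chosen after values were seen, and lay on 9 chromosomes. First came a region on chromosome 3, from 44731861 to 44732382. It had 57 reads in the mCherry only list (exact Poisson 95% interval 43.2 to 73.9), 56 in GFP only (42.3 to 72.7) and 78 in the double negative list (61.7 to 97.3), with folds of 10.6, 10.7 and 10.9. The 3 lists thus had nearly the same fold there. At the lowest of these heights the double positive list would have held 46.4 reads (35.2 to 60.2) where 13 were needed, and its nearest peak was 27832 bp away.

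The next, at 22866440 to 22866924 of chromosome 1, had 53 reads in mCherry only, 57 in GFP only and 61 in double negative. The nearest double positive peak, 10005 bp away, had 13 reads. The region on chromosome 18 from 41616765 to 41617454 was the widest of the 10 (690 bp), with 58, 54 and 60 reads in the same order of lists. All 3 of its counts overlap in their intervals, and 12 reads were needed. A region at 22770217 to 22770902 of chromosome 10 stood apart, with 106 double negative reads (86.8 to 128) against 46 in mCherry only (33.7 to 61.4) and 55 in GFP only (41.4 to 71.6). The region on chromosome 22 from 40122226 to 40122618 lay 2067 bp from a double positive peak of 17 reads. It had 54 reads in mCherry only, 53 in GFP only and 60 in double negative.

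The other 5 of these 10 regions lay on chromosomes 2, 10, 15, 17 and 20. That on chromosome 17 from 2649073 to 2649490 had 55 reads in mCherry only, 61 in GFP only and 50 in double negative. Chromosome 2 held one from 42147328 to 42147681, with 48, 56 and 50 reads in that order. The region on chromosome 15 from 3200044 to 3200521 had 57, 51 and 50 reads and lay closest to a double positive peak, at 1545 bp. On chromosome 20 the region from 15367817 to 15368431 had 56, 47 and 51 reads. That on chromosome 10 from 18327296 to 18327807 had 47, 48 and 72 reads, with the nearest double positive peak 30296 bp away. In all 10 the local background was 1.09 to 1.76 times the genome-wide one.

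**Figure D3:**
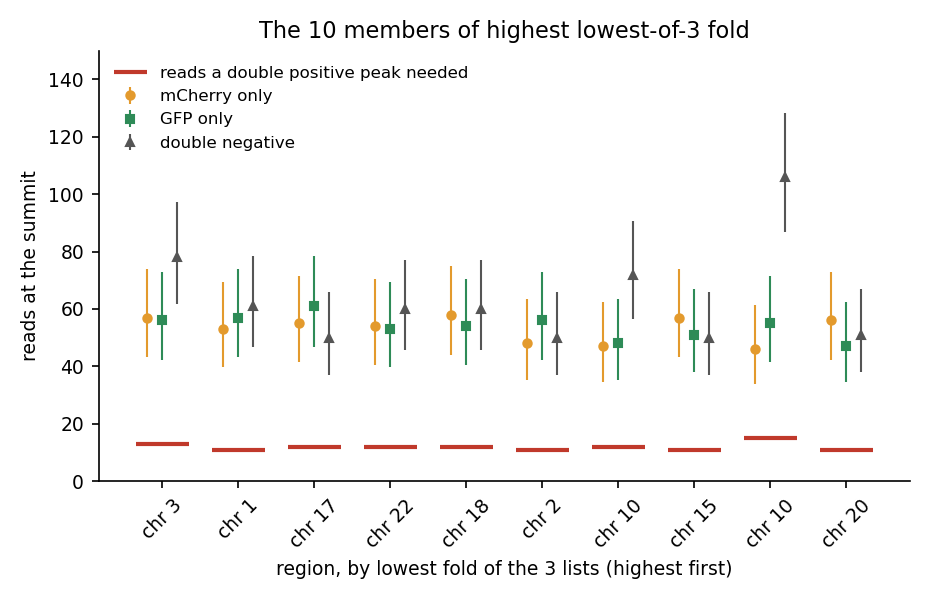
Reads at the summit (y axis) of the 10 members with the highest lowest-of-3 fold (x axis, named by chromosome) in the mCherry only, GFP only and double negative lists, with exact Poisson 95% intervals. The bar in each column, at 11 to 15 reads, is the number a double positive peak needed, and every interval lies above it. Reads are shown as counted in each list, not scaled to the lower double positive background.

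The tallest members by height were of another kind. The 10 members with the highest lowest-of-3 height had 145 to 217 reads in mCherry only, 157 to 222 in GFP only and 143 to 229 in double negative, but the lowest of their folds were at most 2.01. Their local background was 18.4 to 32.8 times the genome-wide one, so a double positive peak would have needed 92 to 152 reads, and 4 of the 10 were above the call limit. Each lay within 913 bp of a double positive peak, and those nearest peaks had 131 to 276 reads at folds of 1.59 to 3.71. These members thus stood inside stretches of very high read density that the double positive list also held. They were 204 to 425 bp wide and lay on 6 chromosomes, with 3 each on chromosomes 8 and 17.

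The tallest lay on chromosome 8 from 45705985 to 45706261, and had the greatest height of all members in GFP only and double negative. It had 217 reads in mCherry only (189 to 248), 222 in GFP only (194 to 253) and 229 in the double negative list (200 to 261), with folds of 1.61, 1.59 and 1.78. A double positive peak of 192 reads lay 112 bp from it. The greatest mCherry only height was on chromosome 25 from 35458968 to 35459310, with 239 reads in mCherry only (210 to 271), 189 in GFP only (163 to 218) and 78 in the double negative list (61.7 to 97.3). That region was not above the call limit, since 70 reads were needed and 63.4 were scaled from the lowest height. It lay 195 bp from a double positive peak of 58 reads.

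In all, 246 members had a height of 10 or more in every one of the 3 lists, 1.33% of the 18450 regions that did. The shares missing at that height were 0.141% for mCherry only, 0.771% for the GFP only list and 0.888% for the double negative list. Their median local background was 3.27 times the genome-wide one, and 204 of them were above the call limit. At height 20 or more there were 15 members, 7 of them above the limit, with local backgrounds of 11.9 to 32.8 and distances of 112 to 913 bp to a double positive peak. Ranked by fold instead, 1142 members had a fold of 5 or more in all 3 lists (4.23% of 26990 regions), 89 a fold of 7 or more and 24 a fold of 8 or more. At fold 5 or more 0.00907% of regions lacked an mCherry only peak alone, 1.19% a GFP only peak alone and 1.24% a double negative peak alone.

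**Figure D4:**
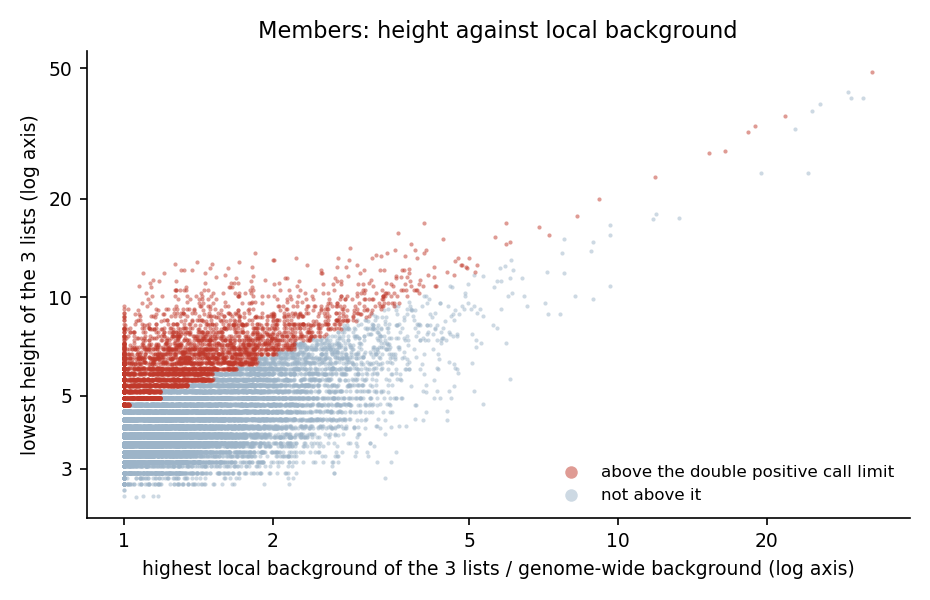
Lowest height of the 3 lists (y axis, log scale) against the highest local background over the genome-wide one (x axis, log scale) for the 20973 members, with the 4264 above the call limit in the darker colour. The 15 members of height 20 or more lie at local backgrounds of 11.9 to 32.8.

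Over all heights, members had narrower peaks than regions of all 4 lists. The median width of the double negative peak was 414 bp in members (quartiles 294 and 560) and 503 bp in regions of all 4 lists (354 and 695). The partner peaks had median widths of 337 bp in mCherry only and 342 bp in GFP only for members, against 511 and 450 bp in regions of all 4 lists. A width of 1000 bp or more was reached by 427 of 20973 members, against 3776 of 55667 regions of all 4 lists. The widest member, of 1777 bp, lay on chromosome 6 from 4432042 to 4433818 and had 28 reads in mCherry only, 35 in GFP only and 70 in double negative. The next widest were of 1665 bp on chromosome 6 from 18107222 to 18108886 and of 1608 bp on chromosome 13 from 30682216 to 30683823. None of these 3 was above the call limit. Members above the limit had a median width of 433 bp, against 552 bp in regions of all 4 lists above it. At matched double negative height the order of the double negative widths changed. At height 4 to 6 the medians were 336.5 bp in members and 345 bp in regions of all 4 lists, at height 6 to 8 they were 432 and 422 bp, and at height 8 to 12 they were 518 and 495 bp, so members were the wider in the upper bins. The partner peaks of members had lower median widths in each of these bins, but the bins did not match the partners' own heights. At double negative height 8 to 12, mCherry only partners had a median width of 354 bp for members and 483 bp for regions of all 4 lists. The median heights of these partners were 5.61 and 10.3. For GFP only partners the widths were 356 and 428 bp, and the heights 5.63 and 8.91. Partner widths at equal partner height were not compared.

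The 3 summits of a member lay close together in most cases. They spanned a median of 83 bp in members and 44 bp in regions of all 4 lists, and at most 100 bp in 57.9% and 74.1%. Above the call limit the medians were 50 and 31 bp. Nearly every member had partners of its own, since the 20973 members met 20891 different mCherry only peaks and 20897 different GFP only peaks.

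Most members stood clear of double positive peaks. Their distances were not set against those of arbitrary positions, so nearness to double positive peaks was not tested. The median distance from edge to edge was 5702 bp (quartiles 2574 and 11927). Within 500 bp there were 1123 members (5.35%), within 1 kb 9.12% and within 10 kb 69.6%, and 321 lay farther than 50 kb away. For comparison, regions of all 4 lists had a median of 4331 bp to the next double positive peak that they did not overlap. Such a peak lay within 500 bp for 11.7% of these regions, within 1 kb for 17.7% and within 10 kb for 79.4%. Members above the call limit had a median of 5380 bp and 70.9% within 10 kb. A partner peak that itself overlapped a double positive peak was found for 343 members (1.64%), and 45 of these were above the limit. Without members that had a double positive peak within 500 bp, 19850 remained, of which 4063 were above the limit.

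**Figure D5:**
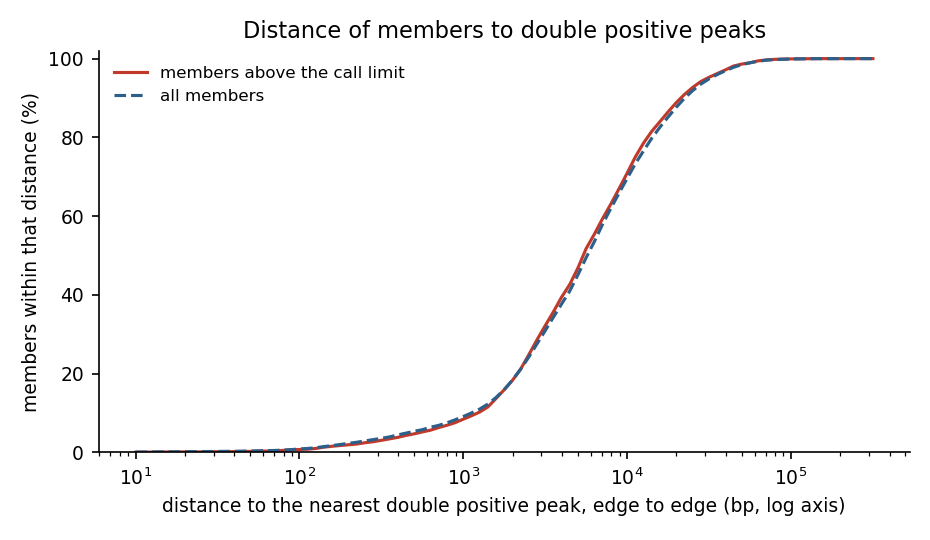
Cumulative share of members (y axis, %) by distance to the nearest double positive peak (x axis, bp, log scale), for the 4264 members above the call limit and for all 20973 members. Both curves pass 50% near 5 kb, with medians of 5380 and 5702 bp, and 70.9% and 69.6% lie within 10 kb.

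At the edge of the rule, the members nearest to a double positive peak abutted it at a distance of 1 bp. One was at 7816702 to 7817070 of chromosome 25, with 21 reads in mCherry only, 33 in GFP only and 33 in double negative, and the other at 52680452 to 52680848 of chromosome 3, with 33, 24 and 17 reads. Their neighbouring double positive peaks had 20 and 27 reads. Just outside the rule, a region on chromosome 14 from 15329845 to 15330308 overlapped a double positive peak of 14 reads by 2 bp. It had 20 reads in mCherry only, 18 in GFP only and 30 in double negative. Another on chromosome 13 from 34852406 to 34852627 shared 2 bp with a double positive peak of 18 reads, and had 28, 56 and 16 reads. None of these 4 regions was above the call limit.

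The member farthest from any double positive peak lay on chromosome 19 from 38453066 to 38453283, at 200666 bp, with 24 reads in mCherry only, 18 in GFP only and 20 in double negative. Of the 59 members above the call limit that were farther than 50 kb, 3 were singled out by fold after values were seen. The first, at 16416831 to 16417356 of chromosome 14, had 41 reads in mCherry only (29.4 to 55.6), 45 in GFP only (32.8 to 60.2) and 46 in the double negative list (33.7 to 61.4), where 10 were needed. On chromosome 5 from 60353194 to 60353822 there were 66, 45 and 36 reads in that order, and on chromosome 24 from 18378383 to 18378979 there were 35, 36 and 52. At the opposite extreme, the member with the greatest mCherry only height among those of fold 5 or more lay 12 bp from a double positive peak of 49 reads. It was on chromosome 23 from 33801332 to 33801868, with 107 reads in mCherry only, 70 in GFP only and 62 in double negative.

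The surroundings of members held fewer double positive peaks for their number of double negative ones than those of regions of all 4 lists. Within 50 kb on either side, with the region's own peaks left out, members had a mean of 7.15 double positive and 14.2 double negative summits, a ratio of 0.502. Regions of all 4 lists had 8.62 and 13.2, a ratio of 0.652. Above the call limit the ratios were 0.526 in members and 0.669 in regions of all 4 lists. The whole lists held 90687 double positive and 166282 double negative peaks, a proportion between those of members and of regions of all 4 lists. A depletion around members against the whole lists was not tested. The median was 11 mCherry only and 11 GFP only summits around members, against 12 and 12 around regions of all 4 lists. No double positive summit lay within 50 kb of 327 of the 20973 members (1.56%), and none other than their own within 50 kb of 357 of 55667 regions of all 4 lists (0.641%).

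Members tended to have members as neighbours. The nearest region of the 3 lists was itself a member for 36.7% of members (36.1 to 37.4) and for 23.2% of regions of all 4 lists (22.8 to 23.5), where 27.4% of regions were members. Among regions above the call limit, the nearest such region was a member for 17.6% of members (16.5 to 18.7) and for 8.96% of regions of all 4 lists (8.68 to 9.26), against 10.3% over both. The same pair of shares was 6.87% and 4.16% for regions above the limit missing only from GFP only, and 6.69% and 3.87% for those missing only from double negative. For mCherry only they were 0.483% and 0.564%, with 207 regions. Over all regions the pairs were 6.92% and 3.18% for mCherry only, 14.8% and 10.1% for GFP only and 12.4% and 7.87% for double negative. Having neighbours of the same class is thus not particular to members.

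Chained over gaps of at most 20 kb between summits, members formed 343 runs of 5 or more, which held 2102 members (10.02%). Regions of all 4 lists, which are more numerous, formed 3115 such runs with 45.8% of their regions, the longest of 56, so runs are not particular to members. There were 5 such runs of regions missing only from GFP only, 6 missing only from double negative and none missing only from mCherry only, classes with far fewer regions. With lists of equal length there were 10 runs of members. The longest held 14 members on chromosome 11 from 29131882 to 29273469. In that stretch there were 9 double positive peaks, against 32 in mCherry only, 26 in GFP only and 41 in double negative. The 14 members had 18 to 82 reads, and 2 of them were above the call limit. Members lack a double positive peak by the rule, so chaining them in part fixes the low double positive counts of this and the following runs.

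The run that followed held 13 members on chromosome 7 from 55463363 to 55567947, with 5 double positive peaks against 24 in mCherry only, 23 in GFP only and 24 in double negative. Its members had up to 46 reads in mCherry only, 62 in GFP only and 75 in double negative. Next came 12 members on chromosome 10 from 4629974 to 4752988, with 5 double positive peaks against 19, 21 and 23 in the other lists in that order. Members above the call limit formed 2 runs, of 5 each. One lay on chromosome 20 from 39189394 to 39223094, with 1 double positive peak against 8 in mCherry only, 9 in GFP only and 8 in double negative, and up to 57, 53 and 57 reads. The other, on chromosome 11 from 19790889 to 19825696, had 2 double positive peaks against 10, 9 and 8, and up to 42, 43 and 36 reads.

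Members lay on each of the 25 chromosomes, at shares that differed. The share of regions of the 3 lists that were members ranged between 23.0% on chromosome 3 (848 of 3692, Wilson interval 21.6 to 24.4) and 32.8% on chromosome 9 (1095 of 3339, 31.2 to 34.4). Above the call limit the same chromosomes were the extremes, with 7.46% (6.42 to 8.64) and 14.4% (12.8 to 16.2). On chromosome 4 beyond 25 Mb 21.4% of regions were members (317 of 1480), against 29.7% on the rest of that chromosome, and above the limit the shares were 5.88% and 11.5%. Within 1 Mb of a chromosome's start or of its last peak 22.2% of regions were members, against 27.6% elsewhere.

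In windows of 1 Mb the shares were wider apart. Windows hold far fewer regions than chromosomes, so counting error alone widens their spread, and that part was not set apart. Among 1278 windows with at least 30 regions the median share was 26.6% (quartiles 20.6 and 33.3). It was highest on chromosome 11 from 40 to 41 Mb, where 27 of 44 regions were members and the double positive list held 40 peaks, against 90 in mCherry only, 84 in GFP only and 147 in double negative. Chromosome 13 from 20 to 21 Mb followed, with 25 of 41 regions and 23 double positive peaks against 66, 77 and 121. As with the runs, picking windows by their members in part fixes such low double positive counts. On chromosome 22 from 1 to 2 Mb none of 95 regions was a member, and the double positive list there held 109 peaks against 115, 117 and 128. Counting only regions above the call limit, 1105 windows had at least 20 of them. Among these, chromosome 9 from 15 to 16 Mb came first with 11 members of 26 regions, and chromosome 23 from 41 to 42 Mb second with 12 of 30.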

How the data were processed

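The submitters' processing notes name Bowtie2 2.2.1, the peak caller MACS2 2.1.0 and the build danRer7. How reads were filtered, shifted for Tn5 and pooled, and the caller's settings, are not stated there. The deposited lists give each peak a score (not used), a fold (linear ratio over local background), −log10 p, −log10 q and a summit offset, all computed by the authors. Coordinates are printed 1-based in danRer7.

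Reads and local background at each summit were recovered from fold and −log10 p as the whole number that gives both under a Poisson tail, with 1 added to reads and background in the fold. Misfits of −log10 p were at most 0.000382, and the second-best number missed by at least 0.00206. On simulated peaks 100% of read numbers were recovered in each list, which checks the computation and not the inferred formula. The lowest background of a list served as its genome-wide one: the double positive list had 3.63 reads, mCherry only had 4.46, GFP only had 4.26 and double negative had 4.47. Where a peak met several peaks of a list, the one with most reads was used.

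Members, comparisons and named regions were chosen with earlier results of these data known. Regions were named as the 10 members of highest lowest-of-3 height, the tallest in each list, the 3 widest, the 3 longest runs, and the members nearest to and farthest from double positive peaks. The ranking by fold, the neighbours and the windows were added after values were seen. Python 3.11.15, numpy 2.4.6, pandas 2.3.3 and scipy 1.17.1 were used. Genes and sequences are not given, since neither a genome nor an annotation of that build was used.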

Additional observations from a re-analysis of the deposited data

How the results depend on the processing

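No paired analysis was possible because the 3 samples of a group share 1 list, which also kept any replicate from being left out. Of 83 values recomputed, 36 stayed within 1.5 times the reported count, or within the 95% counting interval of the reported ratio, share or median. With −log10 q of 5 or more in every list, 407 members were of height 10 or more in all 3 lists, 761 were above the call limit, 145 runs formed, 59.6% of members lay within 10 kb of a double positive peak, their median height was 7.39 and their median width 450.0 bp. The ratio to regions missing only from GFP only was 3.04. With that threshold on the double negative list alone, the ratio was 3.74, with 227 runs, a median height of 6.94 and a median width of 449 bp. Reciprocal overlap of 50% gave a ratio of 2.72, 831 tall members, 213 runs, 77.6% within 10 kb, and medians of 6.72 and 419 bp. Lists of equal length, which shorten every list but the double positive one, gave 6268 members, a ratio of 1.25, 10 runs, 72.1% within 10 kb, and medians of 8.06 and 461 bp. Leaving out members within 500 bp of a double positive peak gave a ratio of 3.50, 67.8% within 10 kb and a width of 419 bp. Leaving out those whose partners overlapped one gave a ratio of 3.34. Counted in the mCherry only list, the median width was 421 bp.

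Height 7 or more was reached in all 3 lists by 1507 members, height 15 by 30 and fold 5 by 1142. Gaps of at most 10 kb gave 61 runs, and 9.12% of members lay within 1 kb of a double positive peak. The count above the call limit was 8449 at the genome-wide background and 11155 with the median of the 3 heights. The shares missing above the limit were 3.51% for double positive, 0.0241% for mCherry only, 1.57% for the GFP only list and 1.54% for the double negative list with the stricter threshold in every list. They were 9.74%, 0.0108%, 1.55% and 1.58% with equal length, and 16.5%, 2.71%, 8.35% and 7.60% with reciprocal overlap, highest for double positive under each of these 3 settings. A stricter threshold, equal length or stricter overlap moves calls or limits by construction. Equal length raises the limit of every list but the double positive one. For the rest the cause was not tested. Fold 5, these shares and the other backgrounds of the limit were added after seeing the data. Under the reported limit 16709 members were not above it, and fewer with the genome-wide background or the median height. Lower accessibility was tested neither in these nor in the members above the limit.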
